A study of Danio rerio with 9 samples.

Results

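The zebrafish genes gch2 and atic, one from pteridine synthesis and one from purine synthesis, were followed across 9 oligonucleotide arrays of microdissected hindbrain tissue. They are 2 of the 5355 genes named on the array, and each was read by a single probe among the 16227 probes tested. Both were selected because an earlier reading of these arrays found them higher in normal rhombomere 2 (r2) than in rhombomere 4 (r4), both normal and Hoxb1a-deficient. Every difference between r2 and either r4 tissue given below for gch2 and atic is therefore a description, without a test. The comparison of Hoxb1a-deficient r4 with normal r4 was not itself the ground of selection and was tested. The selection used the levels of both r4 tissues, so this test is not independent of it.

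As background, gch2 encodes a GTP cyclohydrolase, the enzyme that turns GTP into the first intermediate of the pteridines. The pathway yields the yellow pigments of xanthophores and the cofactor tetrahydrobiopterin, which the hydroxylases of dopamine and serotonin synthesis use. In zebrafish embryos gch2 is commonly used to mark pigment cell precursors of the neural crest, the xanthophore lineage above all. The gene atic encodes the bifunctional enzyme that closes de novo purine synthesis by making IMP, the common precursor of AMP and GMP. Purine synthesis thus supplies the GTP on which GTP cyclohydrolase acts, and the guanine that forms the reflecting platelets of iridophores.

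All embryos carried the islet-1 GFP transgene and were taken at 19 to 20 hours post fertilization. The groups, with 3 arrays each, were r4 from unmanipulated embryos (normal r4), r4 after injection of a morpholino against Hoxb1a, called Hoxb1a-deficient r4, and r2 from unmanipulated embryos, called normal r2. Hoxb1a is the homeodomain factor that specifies r4, and r2 served the study as a further tissue without it. The tissue was dissociated with 0.025% trypsin in all samples. A sample pooled 8 to 10 embryos and was a thick transverse slice around the rhombomere, so tissue beside the neural tube was included. A morpholino blocks a gene's product for a limited time and need not remove its transcript.

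The arrays came from 3 experiments, which are the replicate numbers. Experiment 1 held no r2 sample and experiment 3 held a pair of them, called 3a and 3b. In the tissue label of the third Hoxb1a-deficient sample the deficiency is not repeated, and its title and treatment place it in that group. Values are multiples of the array median, which was 1.00 to 1.01 on all 9 arrays. The upper quartile was 3.64 to 6.87 and the highest value 107 to 190. No detection calls were used, so the array median serves below as the mark of a dim probe. The hoxb1a probe stood at 3.02, 2.42 and 1.88 in normal r4, at 3.17, 1.52 and 1.51 in Hoxb1a-deficient r4 and at 0.774, 0.590 and 0.567 in r2, so its transcript did not separate the r4 tissues.

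The gch2 probe was dim in both r4 tissues and clearly above the array median in r2. It read 0.660, 0.824 and 0.731 in normal r4, in the order of experiments 1, 2 and 3. In Hoxb1a-deficient r4 it read 0.594, 0.845 and 0.788. In r2 it read 4.31 in sample 2, 3.72 in sample 3a and 3.37 in sample 3b. The 6 r4 arrays thus all lay under the array median, and the lowest r2 array lay above the highest r4 array. The mean of normal r4 was 0.739 ± 0.0824, that of Hoxb1a-deficient r4 0.742 ± 0.131 and that of r2 3.80 ± 0.476 (SD, n = 3 each). In the order of levels both r4 tissues came lowest and overlapped, and r2 stood apart from them. Among all probes of an array, gch2 sat at the 33.6th to 41.5th percentile in the r4 samples and at the 72.0th to 76.9th in the r2 samples.

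On the log2 scale the gch2 mean was 2.36 higher in r2 than in normal r4, a 5.14-fold difference. The same difference was 2.39 within experiment 2 and 2.27 within experiment 3, where samples 3a and 3b gave 2.35 and 2.20. Both experiments that held r2 thus gave nearly the same size. Against Hoxb1a-deficient r4 the difference was 2.36, or 5.15-fold, with 2.35 in experiment 2 and 2.17 in experiment 3. Both contrasts use the same r2 arrays, so they are not independent of each other. Ordered by the difference between r2 and normal r4, gch2 stood at place 12 of 16227 probes and at place 3 of the 5907 with a gene symbol. How much of a value under the array median is signal was not measured. In pooled tissue of this kind, fewer cells of a type and less RNA per cell cannot be told apart.

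The atic probe was far above the array median everywhere and brightest in r2. In normal r4 the readings of experiments 1, 2 and 3 were 64.3, 40.6 and 47.9. It read 61.4, 56.7 and 57.4 in Hoxb1a-deficient r4. In r2 it read 117 in sample 2, 107 in sample 3a and 119 in sample 3b. The r2 arrays again lay above all 6 r4 arrays, while the r4 tissues overlapped each other. The mean of normal r4 was 50.9 ± 12.1, that of Hoxb1a-deficient r4 58.5 ± 2.56 and that of r2 114 ± 6.50 (SD, n = 3 each). The order of levels was therefore the same as for gch2, with the r4 tissues as neighbours that overlapped. Its percentile rose little with this, from 95.3 to 95.4 in normal r4 and 96.1 to 96.6 in Hoxb1a-deficient r4 to 98.5 to 98.8 in r2.

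The atic mean was 1.19 higher on the log2 scale in r2 than in normal r4, a 2.29-fold difference. Within experiment 2 it was 1.53 and within experiment 3 it was 1.23, with 1.16 for sample 3a and 1.31 for sample 3b. Against Hoxb1a-deficient r4 the difference was 0.97, or 1.95-fold, with 1.05 and 0.98 within the experiments. All these differences were smaller than the corresponding ones of gch2. Ordered by the difference from normal r4, atic stood at place 102 of all probes and at place 34 of those with a symbol. The r2 readings of experiment 3 reached the top of the scale. In sample 3a atic equalled the array's highest value, which 243 probes shared, and in sample 3b it stood at 99.8% of it. In sample 2 it stood at 61.6% of the highest value, and on the r4 arrays at 21.8% to 50.3%. The differences of experiment 3 may thus be cut short, and that of experiment 2 was read away from the limit.

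**Figure D1:**
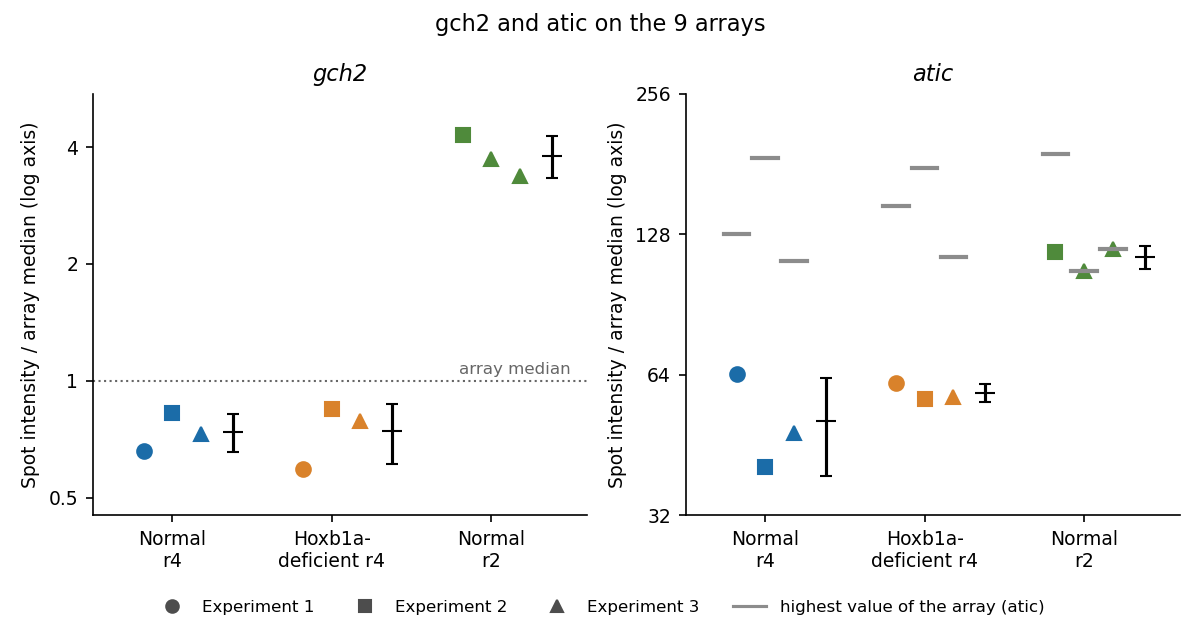
Level of gch2 and atic on each of the 9 arrays, as a multiple of the array median on a log axis, with arrays grouped by tissue and marked by experiment, black bars for the mean ± SD of 3 arrays and grey bars for each array's highest value. The 3 r2 arrays lie above all 6 r4 arrays in both panels, gch2 at 3.37 to 4.31 and atic at 107 to 119.

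For context, every r2 array lay above all 6 r4 arrays for 353 probes, or 2.18% of those tested, gch2 and atic among them by choice. Under limma with Benjamini-Hochberg adjustment over all probes, 22 probes were higher in r2 than in normal r4 (0.136%) and 72 were lower (0.444%), together 0.579%. Over all probes the median log2 difference between r2 and normal r4 was 0.08, and 0.04 with the experiment as a block. At an unadjusted p under 0.05, limma counted 667 of the 16227 probes, and 1779 with the experiment as a block. The unadjusted counts of the lists below are to be read beside these.

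Hoxb1a deficiency in r4 was the comparison tested for gch2 and atic, on r4 levels that the selection had also used. For gch2 the log2 difference between Hoxb1a-deficient and normal r4 was -0.0032 ± 0.22 (SE), with a 95% confidence interval of -0.50 to 0.49 (limma, adjusted p = 1.00). Within the experiments it was -0.15, 0.03 and 0.11, without a shared direction. For atic the difference was 0.23 ± 0.22 (SE), with an interval of -0.26 to 0.71 (limma, adjusted p = 1.00). Its experiments gave -0.07, 0.48 and 0.26, so Hoxb1a-deficient r4 read higher in 2 of 3. Neither gene passed the test, nor did any other probe, so the background was 0.0% of 16227, with 82 probes at an unadjusted p under 0.05. With the experiment as a block the intervals narrowed to -0.27 to 0.26 for gch2 and -0.08 to 0.53 for atic, with limma adjusted p values of 0.999 and 0.890, and 2 other probes passed. All 4 intervals contain 0. Both genes were chosen for reading lower in both r4 tissues than in r2, a choice that can favour a difference near 0. The gch2 probe was also dim, under the array median in both r4 tissues. The test therefore cannot decide whether Hoxb1a deficiency changes either gene, and no conclusion is drawn from it.

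Of 21 listed genes of pteridine and tetrahydrobiopterin metabolism, 4 were measured, gch2 and 3 more. None of the 3 passed the test between r2 and normal r4 under limma, also none at an unadjusted p under 0.05. Their median difference was 0.27 beside 0.08 over all probes. That median is the value of th, a dim probe on every array. With the block the median was 0.37, the value of tph1b, beside 0.04 over all probes. The gene spra encodes sepiapterin reductase, which completes tetrahydrobiopterin. Its probe read 19.4, 4.79 and 10.7 in normal r4, 20.0, 5.28 and 7.25 in Hoxb1a-deficient r4 and 7.75, 20.4 and 20.1 in r2. Levels spread widely within each tissue, and the tissues overlapped. The difference between r2 and normal r4 was 0.56 ± 0.61 (SE) on the log2 scale (limma, adjusted p = 0.959), with 0.69 in experiment 2 and 0.92 in experiment 3. It was 0.03 when the second normal r4 array was left out and 1.04 without the first. With the experiment as a block it was 0.91 (adjusted p = 0.0544).

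The other pteridine genes use tetrahydrobiopterin as a cofactor. The probe of th, tyrosine hydroxylase of dopamine synthesis, lay under the array median on all 9 arrays. The probe of tph1b, a tryptophan hydroxylase of serotonin synthesis, differed by 0.15 ± 0.30 (SE), with -0.14 in experiment 2 and 0.73 in experiment 3. Of these 3 genes spra alone was above the array median on every array.

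Of 18 listed genes of de novo purine synthesis, 9 were measured. Beside atic, 0 of the 8 others passed the test between r2 and normal r4 under limma, also 0 at an unadjusted p under 0.05. Their median log2 difference was 0.20, and 7 of 8 were positive, with a range of -0.19 to 0.42. With the block the median was 0.12, with 6 of 8 positive, beside a median of 0.04 over all probes. The share of positive differences over all probes was not counted. With the experiment as a block 1 of the 8 was called, impdh1b, beside 0.764% of all probes called higher. The probes of paics, adss1 and gmps lay under the array median on every array and say little in either direction. All of them are among the 7 positive ones of the fit without the block.

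The earlier steps of the pathway were read by probes at very different brightness. The gene prps1a, which makes the activated ribose that purines are built on, read 96.4 to 112 in normal r4, 96.9 to 125 in Hoxb1a-deficient r4 and 107 to 124 in r2. Its tissues overlapped near the top of the scale, with the array's highest value reached on 2 arrays. The difference between r2 and normal r4 was 0.15 ± 0.20 (SE). The gene gart encodes the trifunctional enzyme of the early ring-building steps and read 2.04, 1.16 and 0.865 in normal r4, with a mean of 1.11 ± 0.0168 (SD, n = 3) in r2. Its difference was -0.19 ± 0.34 (SE), and no shared direction appeared within the experiments.

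Downstream of atic, impdh1a and impdh1b encode IMP dehydrogenases, which open the branch from IMP to GMP and so to GTP. The impdh1b probe read 96.2, 16.7 and 39.1 in normal r4, 104, 23.9 and 43.6 in Hoxb1a-deficient r4, and 27.4, 70.5 and 77.9 in r2. Experiment 1 was highest in both r4 tissues, and the tissues overlapped across experiments. The difference between r2 and normal r4 was 0.42 ± 0.68 (SE) without the block (limma, adjusted p = 0.959) and 0.82 ± 0.15 with it (adjusted p = 0.0319). It was 0.72 in experiment 2 and 0.92 in experiment 3. Without the block it turned to -0.21 when the second normal r4 array was left out and rose to 1.06 without the first. The call was made in 2 of 21 other settings, both with the block, and was lost when experiment 1 was left out of the blocked fit (adjusted p = 0.0896). Adjusted p values over those settings ran from 0.0304 to 1.00. For impdh1a the difference was 0.40 ± 0.25 (SE), which did not pass.

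**Figure D2:**
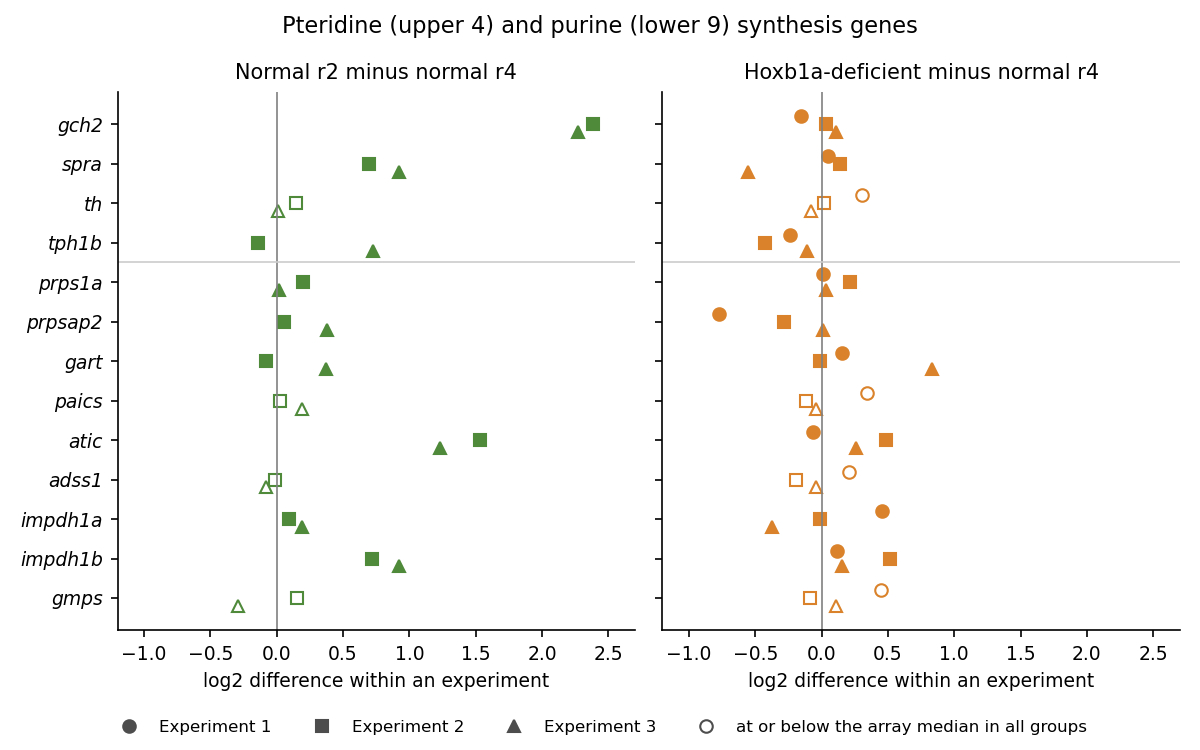
Log2 differences within each experiment for the measured genes of pteridine synthesis (upper rows) and de novo purine synthesis (lower rows), normal r2 minus normal r4 on the left and Hoxb1a-deficient minus normal r4 on the right, with open symbols for probes at or below the array median in all groups. On the left gch2 lies at 2.39 and 2.27 and atic at 1.53 and 1.23, values used to choose them, and the other genes lie between -0.29 and 0.92.

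Neighbouring pathways were read in the same way. Of 28 genes that recycle or interconvert purines, 11 were measured and 0 passed the test between r2 and normal r4 under limma. Their median was 0.21, and 0.10 with the block. Without the block the largest difference was that of nt5c2a, a nucleotidase of IMP and GMP, at 0.71 ± 0.56 (SE), with -0.44 in experiment 2 and 0.67 in experiment 3, and it was 0.10 with the block. With the block the largest was that of ak3, a mitochondrial adenylate kinase family member, at 0.78 ± 0.20 (SE; limma, adjusted p = 0.116), with 0.71 in experiment 2 and 0.87 in experiment 3. Of 25 genes of folate metabolism, which supplies the formyl group that the atic enzyme transfers, 8 were measured and 0 passed. The folate median was -0.08 with 1 of 8 positive. With the replicate block it was 0.14 with 8 of 8 positive, beside a median of 0.04 over all probes. That fit also holds the r4 arrays of experiment 1. Within experiment 2 the differences of slc25a32a, fpgs and dldh were negative (-0.24, -0.19 and -0.20), and those of the other folate genes were positive. Within experiment 3 all measured folate genes were positive. In that list mthfd1l, a mitochondrial formate producer, differed by 0.35 ± 0.38 (SE). At an unadjusted p under 0.05 the count was 0 in both lists, beside 667 of all 16227 probes. With the block it was 2 of 11 in the salvage list (ak3 and pnp5a) and 1 of 8 in the folate list (mthfd1l), beside 1779.

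Since gch2 marks pigment cell precursors, genes of the neural crest and its pigment lineages were read beside it. Of 6 further xanthophore genes measured of 17 listed, 0 passed between r2 and normal r4. Their median was 0.17, and 0.08 with the block. The receptor gene csf1ra, which the xanthophore lineage needs, read 0.602, 1.03 and 1.29 in normal r4, 0.668, 0.789 and 1.04 in Hoxb1a-deficient r4 and 0.957, 1.58 and 2.33 in r2. Its tissues overlapped, and the difference was 0.71 ± 0.37 (SE) without the block and 0.38 with it (limma, adjusted p = 0.959 and 0.651). It was -0.11 in experiment 2 and 0.57 in experiment 3. The probe of pax7a, a transcription factor of the same lineage, lay under the array median on all arrays.

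Of the melanophore genes 4 of 27 were measured and 0 passed, with a median of 0.19, and 0.06 with the block. The transcription factor gene mitfa, which melanophores require, had 2 probes. The brighter read 1.82, 2.85 and 4.62 in normal r4, 1.52, 2.39 and 2.33 in Hoxb1a-deficient r4 and 2.82, 3.37 and 3.26 in r2. There the mitfa levels of r2 overlapped those of normal r4 and lay above all 3 Hoxb1a-deficient readings. Its second, dimmer probe read 0.456, 0.813 and 0.766 in normal r4, 0.589, 0.765 and 0.952 in Hoxb1a-deficient r4 and 1.103, 0.960 and 1.044 in r2, so that the r2 arrays lay above all 6 r4 arrays. That probe differed by 0.65 ± 0.28 (SE), which did not pass (limma, adjusted p = 0.959, and 0.256 with the block). The pigment enzyme genes dct and tyr lay under the array median on every array. Of the iridophore genes 8 besides atic were measured of 16 listed, several of them purine genes named above, and 0 passed. Their median was 0.27, and 0.15 with the block. The iridophore genes pnp4a and ednrba lay under the array median on every array. At an unadjusted p under 0.05 the limma count was 0 in all 3 pigment lists, and with the block 1 gene passed, the impdh1b already described. With the block the unadjusted count was 2 of 8 in the iridophore list and 0 in the others, beside 1779 of all 16227 probes. Probes under the array median on every array made up 3 of the 6 xanthophore genes, 2 of the 4 melanophore genes and 4 of the 8 iridophore genes.

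Of 36 neural crest genes 23 were measured, none of them gch2 or atic, and 0 were higher and 2 lower in r2, beside 0.136% and 0.444% of all probes. At an unadjusted p under 0.05 the limma count was 3 of 23, beside 667 of all 16227 probes. With the block it was 6 of 23, beside 1779. Of these, dlx2a, tfap2a and mycn were higher in r2, by 0.65, 0.50 and 0.48, and dlx5a, prdm1a and foxd3 were lower. Without the block dlx2a was counted beside dlx5a and prdm1a. It was higher by 0.80 ± 0.35 (SE; limma, adjusted p = 0.959), with 0.17 in experiment 2 and 0.88 in experiment 3. The median of the list was 0.10, and -0.02 with the block. The genes called lower were dlx5a, a homeobox gene of pharyngeal arches and placodes, by 2.02 (adjusted p = 0.0248), and prdm1a, a regulator of neural crest and sensory neuron fate, by 1.99 (limma, adjusted p = 0.0160). Calls were made in 11 of 21 other settings for dlx5a (adjusted p 0.00125 to 0.449) and in 14 of 21 for prdm1a (0.000477 to 0.507). Averaging r2 samples 3a and 3b, the pair of experiment 3, gave limma adjusted p values of 0.129 for dlx5a and 0.0786 for prdm1a. Neither gene was called in that setting. Both calls were lost when any of the 3 r2 arrays or the third normal r4 array was left out, with adjusted p values of 0.0937, 0.124, 0.132 and 0.125 for dlx5a and 0.0865, 0.0789, 0.0860 and 0.0812 for prdm1a. That of dlx5a was lost as well without the first normal r4 array (0.0868) and without the second Hoxb1a-deficient array (0.0539). The crest factor gene foxd3 read 2.40, 2.44 and 2.42 in normal r4, 1.66, 1.98 and 1.104 in Hoxb1a-deficient r4 and 2.02, 1.66 and 1.496 in r2. Its differences, -0.50 ± 0.25 for r2 and -0.65 ± 0.25 (SE) for Hoxb1a-deficient r4, did not pass.

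Summed over the 8 measured of 9 defining neural crest genes, levels were 11.6 to 12.8 in normal r4, 9.52 to 13.4 in Hoxb1a-deficient r4 and 11.9 to 14.4 in r2. These ranges overlapped, and sox10, snai1b and pax3a lay under the array median throughout. The tfap2a probe was the largest part of the sum on every array. It read 3.63 to 6.45 in normal r4, 3.73 to 7.66 in Hoxb1a-deficient r4 and 4.57 to 7.53 in r2. How much crest tissue the slices held was not measured. The summed xanthophore markers, 2 measured of 5, were 1.01 to 1.92, 1.13 to 1.60 and 1.61 to 2.99 in the same order of tissues. The melanophore markers, 3 of 5, were 2.68 to 5.82, 2.41 to 3.86 and 4.45 to 4.63, and the iridophore markers, 2 of 4, were 0.758 to 1.40, 0.836 to 1.45 and 1.18 to 1.57. For each of these 4 sums the ranges of r2 and normal r4 overlapped. Against Hoxb1a-deficient r4, the r2 range lay above for the xanthophore sum, narrowly, and for the melanophore sum. It overlapped for the crest and iridophore sums. The largest part was csf1ra in the xanthophore sum, beside dim pax7a, and mitfa in the melanophore sum, beside dim dct and tyr. The melanophore gene kita, outside the sum, differed by -0.17 ± 0.49 (SE) between r2 and Hoxb1a-deficient r4, or 0.32 with the block.

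Other tissue in the slices moved with the r2 difference, and its part in the gch2 and atic levels was not tested. The summed markers of midbrain and isthmus, 4 measured of 5, were 6.51 to 18.6 in normal r4, 6.32 to 17.8 in Hoxb1a-deficient r4 and 14.2 to 32.9 in r2. Among them otx2b, a midbrain factor, differed most between r2 and normal r4, by 3.37 on the log2 scale, and pax2a, a factor of the isthmus and the ear, by -0.53 ± 0.56 (SE), or 0.05 with the block. The pax2a probe read 14.9 and 14.8 on the r4 arrays of experiment 1, most of the 18.6 and 17.8 summed there, and 3.85 to 4.89 in r2. In the whole midbrain list every r2 array lay above all 6 r4 arrays for 6 of 14 measured genes, beside 2.18% of all probes. That count was 2 of 16 in the ear list and 0 of 16 in the skin list. Probes under the array median on every array made up 6 of the 14 midbrain genes, 5 of the 16 ear genes and 4 of the 16 skin genes. The ear markers, 4 of 4, summed to 32.9 to 107, 39.4 to 79.6 and 5.997 to 7.05, and the skin markers, 4 of 4 with cdh1 under the array median throughout, to 8.68 to 27.2, 10.8 to 21.2 and 3.24 to 3.82. The r2 slices thus read lower for ear and skin on every array. Midbrain sums of r2 samples 3a and 3b, 25.1 and 32.9, lay above all r4 arrays. That of sample 2, 14.2, lay above the r4 arrays of experiments 2 and 3 and below those of experiment 1.

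**Figure D3:**
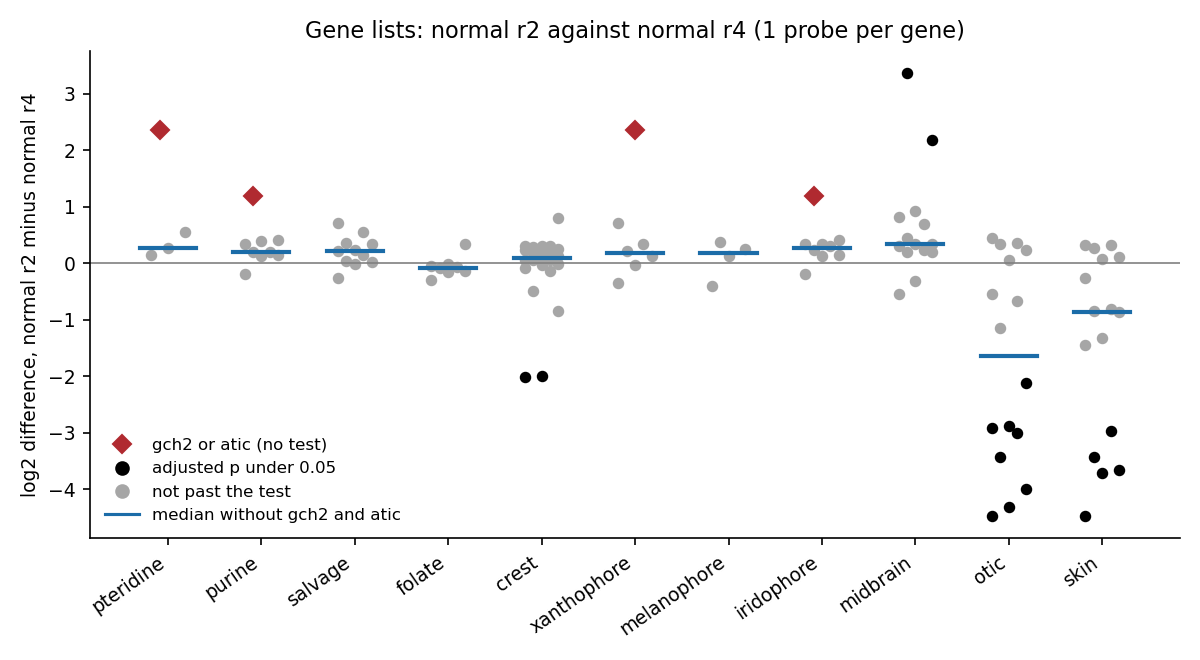
Log2 difference between normal r2 and normal r4 for the measured genes of each list, 1 point per gene, with the list medians and the genes past the limma test marked. Medians of the purine, salvage, folate, crest and pigment lists lie between -0.08 and 0.27 in this fit without the block, and those of the ear and skin lists at -1.64 and -0.86. The midbrain list has the highest median in this fit, 0.34. With the block its median was 0.23, below the 0.37 of the pteridine list.

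The genes whose levels followed gch2 most closely were ranked by Pearson's r of log2 values over the 9 arrays, among 3591 named probes above the array median in at least 1 group. They were iqgap2 (0.971), pdzrn3b (0.965), ciao2a (0.962), palm1b (0.956) and itm2cb (0.953). Of these, iqgap2 and ciao2a entered the pool through r2 only. Their means in normal r4, Hoxb1a-deficient r4 and r2 were 0.893, 0.971 and 2.55 for iqgap2 and 0.967, 0.918 and 1.22 for ciao2a. The ciao2a probe thus stayed near the array median in every tissue. The probe of pdzrn3b, an E3 ligase family member, read 3.82, 7.07 and 4.83 in normal r4, 2.63, 5.13 and 4.63 in Hoxb1a-deficient r4 and 19.2, 28.9 and 18.4 in r2. It was the member of this group with the widest separation between r2 and r4. The probe of palm1b, a membrane-associated protein gene, was nearly flat within r2 at 63.9, 63.4 and 63.6, above 28.9 to 36.5 in normal r4.

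For atic the closest were efna5a (0.948), fgf8a (0.923), sp9 (0.920), atn1 (0.913) and cnpy1 (0.913). The ephrin ligand gene efna5a read 13.2, 7.70 and 9.75 in normal r4 and 34.0, 66.9 and 52.5 in r2, while its second probe, under the array median on every array, differed by 0.19. The genes fgf8a, a signal of the isthmus, and cnpy1, which acts in Fgf signalling there, were read at 3.91 to 5.69 and 3.06 to 5.46 in r2. The order of r2 samples for these genes, with sample 2 lowest, was not that of atic, whose sample 3a was lowest at the array limit. Between gch2 and atic r was 0.901, which put atic at place 15 for gch2 and gch2 at place 8 for atic.

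These arrays share the 3 r2 samples and the experiments, so any gene higher in r2 alone scores high. With the experiment means subtracted, over the 7 arrays of experiments 2 and 3, the closest to gch2 were ek1 (0.993), wu:fc46h12 (0.992) and si:ch211-266i6.3 (0.983). The wu:fc46h12 probe entered the pool through r2 only, with means of 0.576, 0.628 and 1.13 in normal r4, Hoxb1a-deficient r4 and r2. The closest to atic were then tmcc1b (0.979), palm1b (0.974) and cbx8a (0.973). The subtraction removed differences between experiments and left the difference between r2 and r4 in place. Genes higher in r2 alone therefore still score high. None of the first-ranked genes of the order without the subtraction other than palm1b was named again, and palm1b moved from the gch2 order to that of atic. Between gch2 and atic r was 0.967 after this subtraction, with atic at place 13 and gch2 at place 4. Both genes were chosen for being higher in r2. Their r, with or without the subtraction, follows in part from that choice and is a description, without a test.

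**Figure D4:**
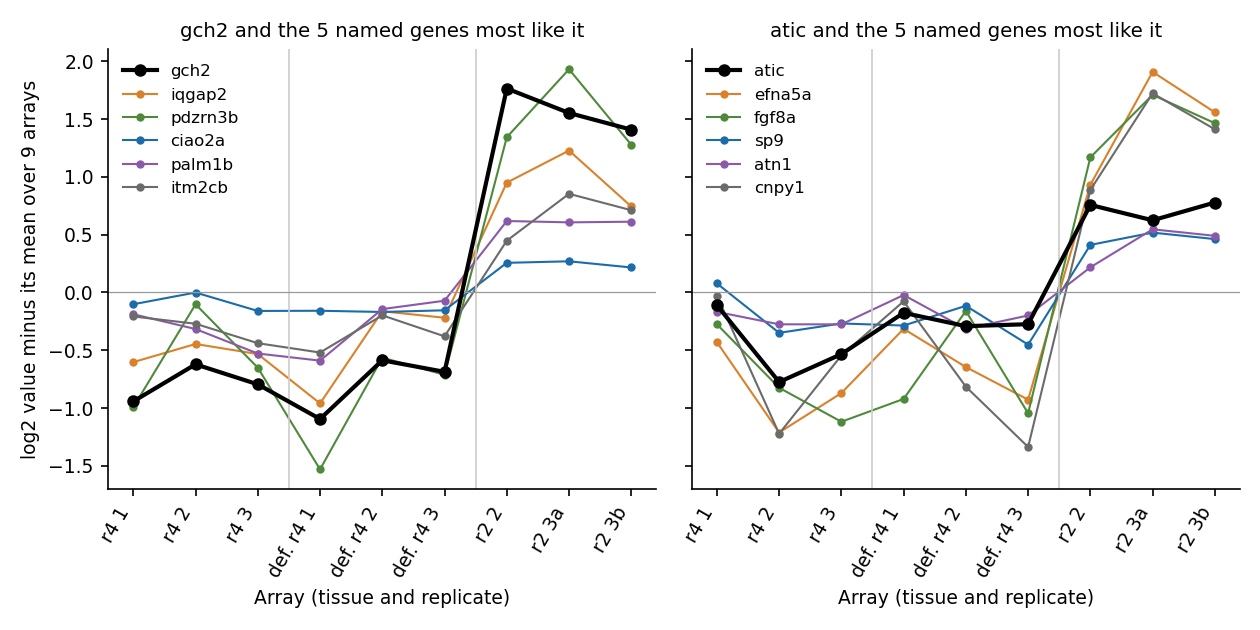
Log2 levels across the 9 arrays of gch2 and atic and of the genes most like each by Pearson's r over 9 arrays, each shown relative to its own mean, with lines joining arrays that have no order. All curves are highest on the 3 r2 arrays, and r lies between 0.953 and 0.971 for gch2 and between 0.913 and 0.948 for atic.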

How the data were processed

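RNA was amplified and labelled with biotin, per the labels' protocols. The authors deposited 1 value per probe and array on a linear scale, here taken to be a ratio to some constant of that array, because array medians lay at 1.00 to 1.01. Scanning, background correction and normalization: not given in the sources used here. Gene names came from the platform's probe table, updated by Entrez ID (6010 symbols matched). There were 6079 probes with 1 symbol, 74 with several and 10246 with none, of 16399. The 172 spots of an actb2 control were left out, which left 16227.

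Groups were taken from sample titles. Log2 values without a pseudocount were fitted with limma 3.58.1 in R 4.3.3 (group means over 9 arrays, eBayes, two-sided, Benjamini-Hochberg over all probes, threshold 0.05). No filter on low values was used. This fit was tested on simulated data with independent noise between arrays and no effect of the experiment. The simulation therefore does not cover the correlation within experiments given below. Replicate numbers are experiments, per the series' design text, so a fit with the experiment as a block was set beside the fit without a block. Deviations from group means correlated with -0.119 to 0.892 in 9 pairs of arrays of 1 experiment and with -0.781 to 0.504 in 18 other pairs. Where a gene had several probes the brightest was used. Whether samples came from separate clutches is not stated, so p values measure the spread between these samples. The fit without the block and the SDs of r2 count samples 3a and 3b, the pair of experiment 3, as separate samples. With the pair averaged, 41 probes rather than 94 were called between r2 and normal r4. The number of arrays limits the precision.

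The members, the gene lists and the rules for naming genes were chosen with earlier results of these data known. Named genes are gch2 and atic, list genes past the test or with the largest differences or best-known roles, and the 5 genes most like each member over 9 arrays (3 over 7 arrays). Left out were promoter motifs and sequences, not analysed here.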

Additional observations from a re-analysis of the deposited data

How the results depend on the processing

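The counts of probes called, the gch2 and atic differences and the pteridine and purine counts were recomputed under 21 other settings. So were the differences between r2 and normal r4 of some named list genes, among them spra, impdh1b, dlx5a and prdm1a. The other lists were read only with and without the block, and marker sums and r values were not recomputed under these settings. Of the settings, 2 were chosen after seeing the data (the replicate block with quantile normalization, and the replicate block without experiment 1). Between Hoxb1a-deficient and normal r4, 0 probes were called. This count became 2 with the replicate block, 9 with a random replicate block, 1 with log2(value + 16), 1 without experiment 1, 5 with the block and quantile normalization, and 0 to 1 when 1 array was left out. Between r2 and normal r4, 94 were called. This count became 276 with the replicate block, 358 with a random block, 44 with log2(value + 1), 4 with log2(value + 16), 162 with quantile normalization, 41 with samples 3a and 3b averaged, 443 with the block and quantile normalization, and 33 to 113 when 1 array was left out (33 without r2 sample 3a, 42 without 3b, 52 without r2 sample 2, 44 without the third normal r4 array).

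For gch2 the log2 difference between Hoxb1a-deficient and normal r4, near 0, turned positive in 8 settings. It was 0.0012 with log2(value + 1), 0.00029 with log2(value + 16), and, with or without the block, 0.025 with quantile normalization and 0.071 without experiment 1. It was 0.15 without the first Hoxb1a-deficient array and 0.079 without the second normal r4 array. Leaving out any other single array kept it negative, down to -0.10. Its adjusted p was 0.949 to 1.00 in all 21. For atic this difference was 0.07 to 0.41 (adjusted p 0.606 to 1.00). The gch2 difference between r2 and normal r4 shrank to 1.46 with log2(value + 1) and 0.24 with log2(value + 16), as adding a constant to a low value must, and that from Hoxb1a-deficient r4 to 1.46 and 0.24. The atic difference was 0.98 with log2(value + 16). Counts for the other pteridine genes rose from 0 to 1 with the block and quantile normalization (spra, adjusted p = 0.0320), and for the other purine genes from 0 to 1 with the block, with or without quantile normalization (impdh1b). The other causes of change were not tested. Averaging all probes of a gene gave no other value, since gch2 and atic have 1 probe each. Readings under the array median and at the array's highest value limit what these probes can show.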
